A study of Drosophila melanogaster with 4 samples.

Results

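The genes described here act in the border cells of the *Drosophila* ovary, in their fate, their guidance and their movement. They are *slbo*, *Pvr*, *Pvf1*, *jar*, *puc*, *Rac1*, *mbc*, *sqh*, *zip* and *Fak*. They were chosen by their symbols, with earlier results of these data known, and all 10 were found among the 17490 genes of the deposited table. The table comes from translating ribosome affinity purification (TRAP), in which a GFP-tagged protein of the ribosome is expressed in chosen cells and its ribosomes are pulled down with the mRNAs under translation. The soma libraries came from ovaries of the genotype tj:gal4, UAS RPL10-GFP, in which the driver is active in the somatic lineage. The germline libraries came from ovaries of the genotype Nos:Gal4Vp16, UAS:RPL10-GFP, in which the driver is active in germ cells. Both groups therefore carried the same tagged ribosomal protein and differed in driver and genotype, and each had 2 libraries, made from the pooled ovaries of many females. The age of the flies is not given in the sources used here. The study calls its replicates biological. The labels do not say how the pools of ovaries were kept apart, and the p-values measure the spread between these libraries.

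Border cells are a small cluster of follicle cells that leaves the anterior follicular epithelium, with a pair of polar cells at its centre, and moves between the nurse cells to the oocyte. Polar cells secrete the cytokine Upd1, which acts through JAK/STAT signalling on the neighbouring follicle cells, and *slbo* is a main target there. The cluster is guided by receptor tyrosine kinases, of which Pvr is one, and these act on Rac, on actin and on adhesion. A ribosome pull-down with a driver of the whole somatic lineage recovers RNA of all follicle cells, of which border cells are a small part, and most of the 10 genes also work in other cells. Fewer cells of a type and less RNA per cell cannot be told apart in such bulk samples.

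The values are FPKM, in which fragments are counted per kilobase of a gene, so that levels can be compared between genes. They were scaled between libraries by factors close to the median ratio of genes, and not by the total of reads. Reads could be traced back from the FPKM for each of the 10 genes. Outside rRNA genes, the libraries held 629199 to 17013813 reads. The deepest was soma replicate 1 and the shallowest soma replicate 2, in which rRNA genes took 74.3% of the reads against 6.22% in soma replicate 1. The follicle cell marker *tj* had 46.8 and 43.9 FPKM in the soma against 2.63 and 3.95 in the germline. The germ cell marker *aub* had 11.2 and 15.3 FPKM in the soma against 43.6 and 33.2 in the germline. All 11 follicle cell markers tested were higher in the soma. Of the 13 germ cell markers tested, 4 were higher in the germline (*aub*, *AGO3*, *otu* and *zpg*), and the list had a median of 43.4% of its germline level in the soma libraries (27.8% to 124.7%, the highest being *egl*).

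Of the 10 genes, *Pvr*, *sqh*, *zip* and *mbc* were higher in the soma than in the germline, and none was higher in the germline. The largest difference was that of the receptor gene *Pvr*, at 51.6 times its germline mean, followed among the called genes by *sqh* (6.68 times), *zip* (3.47 times) and *mbc* (3.31 times). The other 6, *slbo*, *Pvf1*, *puc*, *Rac1*, *Fak* and *jar*, had means 1.33 to 8.46 times as high in the soma and did not pass the test. A gene was called at an adjusted p under 0.05 in limma, a linear model on log2(FPKM + 0.1) across the 8823 genes that averaged 0.1 FPKM or more, with Benjamini-Hochberg adjustment over all of them. At this threshold 8.64% of all genes tested were higher in the soma and 3.59% in the germline. By the cut-offs of the study, more than 5-fold at an unadjusted p under 0.05, *Pvr*, *sqh* and *slbo* passed in the soma direction, in which 9.41% of all genes did, and none passed in the germline direction, in which 1.08% did. The median log2 fold change of the 10 genes was 1.77, against 0.04 over all genes tested. Both soma libraries were above both germline libraries for all 10 genes, as for 29.6% of the genes tested, while 25.8% had the reverse order. At an unadjusted p under 0.05, limma gave 8 of the 10 genes higher in the soma and 0 higher in the germline, against 16.8% and 11.0% of all genes tested. At the same threshold limma-voom on the reads gave 9 and 0, against 17.9% and 14.7%. When any 1 of the 4 libraries was left out, no gene had a limma adjusted p under 0.05, in a fit with 1 residual degree of freedom, and 4 or 5 of the 10, beside 996 to 1439 of the 8823 genes, had an unadjusted p under 0.05 in the soma direction. The log2 fold changes were then 4.37 to 5.71 for *Pvr*, 2.62 to 2.85 for *sqh*, 1.40 to 2.11 for *zip* and 1.32 to 2.24 for *mbc*.

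**Figure D1:**
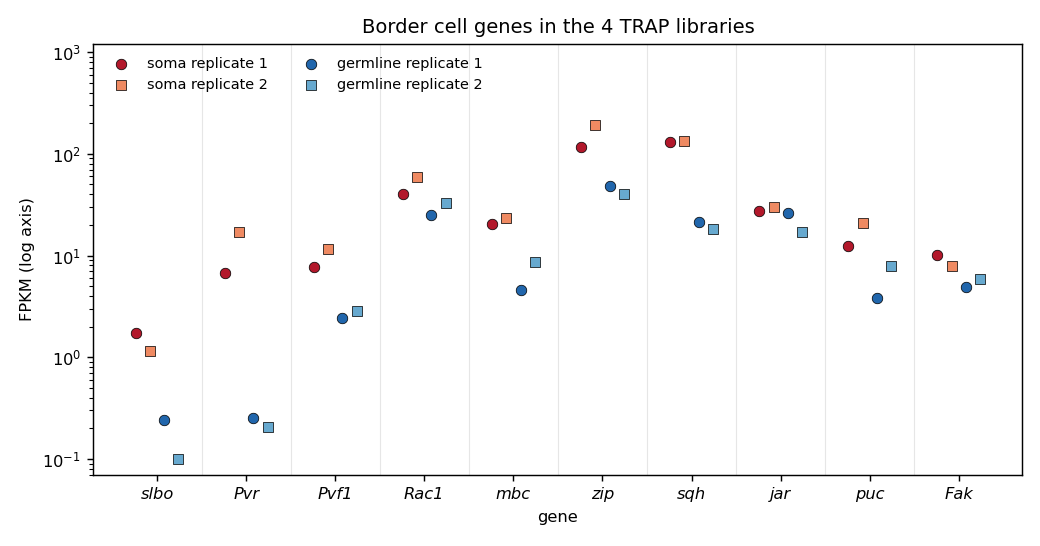
FPKM, on a log axis, of the 10 genes in each of the 4 TRAP libraries; each point is 1 library, red and orange for the soma, dark and light blue for the germline. The soma points lie above the germline ones in each gene, far apart for *Pvr* (6.72 and 17.2 against 0.256 and 0.207 FPKM) and close for *jar* (27.5 and 30.2 against 26.1 and 17.2 FPKM).

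**Figure D2:**
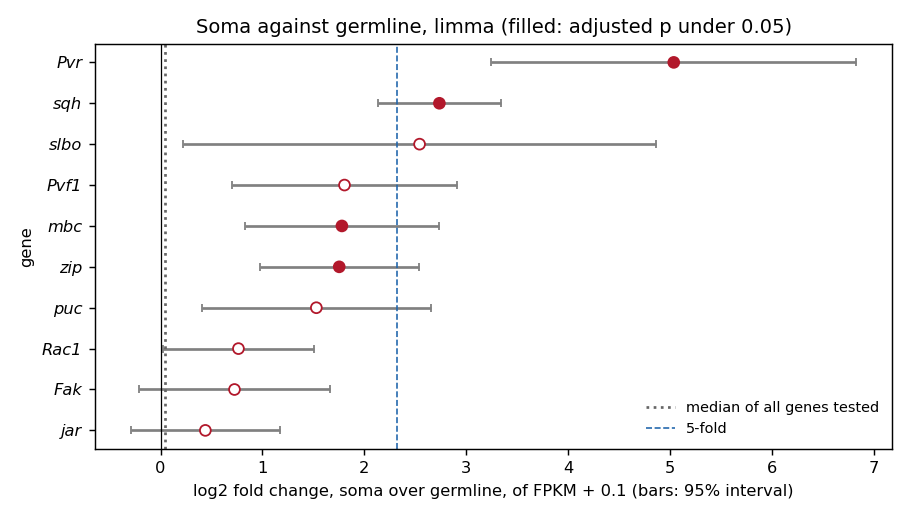
Log2 fold change of soma over germline for the 10 genes, with 95% intervals from limma; filled points have an adjusted p under 0.05, the dotted line is the median of all genes tested and the dashed line is 5-fold. *Pvr* lies at 5.04 with an interval of 3.25 to 6.83, and the intervals of *jar* and *Fak* reach below 0.

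The fate gene *slbo* encodes a C/EBP transcription factor without which border cells are specified poorly and do not migrate. It lies on chromosome 2R from 24331522 to 24334307, on the minus strand, in the BDGP6.54 annotation, whose coordinates are those of dm6. Its value was 1.74 and 1.16 FPKM (replicates 1 and 2) in the soma against 0.244 and 0.0990 in the germline. These rested on 208, 4, 2 and 1 reads, so both soma libraries were above both germline libraries, but 3 of the 4 values came from a handful of reads. The ratio of the summed reads, scaled for depth, was 10.5, with an exact 95% interval of 3.55 to 51.4 that covers counting error only. On the log2 scale the difference was 2.54 (standard error, SE, 0.97, adjusted p of 0.145 in limma). With a pseudocount of 1 it was 1.06, and with quantile normalization 1.25. With a pseudocount of 0.01 it was 3.11, and in limma-voom 3.04 (adjusted p of 0.065 in limma-voom). *slbo* was the lowest of the 10 genes in both groups.

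Among 13 genes that act on border cell fate through JAK/STAT or ecdysone, 4 were higher in the soma: *Stat92E*, the transcription factor of the JAK/STAT pathway, its target and inhibitor *Socs36E*, the ecdysone receptor coactivator *tai*, and *eya*, a nuclear factor that separates other follicle cells from polar cells. None was higher in the germline, by limma at an adjusted p or at an unadjusted p under 0.05. Of all genes tested, 8.64% were higher in the soma at the adjusted p, and 3.59% and 11.0% in the germline at these thresholds. *eya* had 9.15 and 8.35 FPKM in the soma against 0.277 and 0.448 in the germline, a log2 fold change of 4.28 (SE 0.66, adjusted p of 0.0105 in limma). Its germline values rested on 3 and 6 reads. *Socs36E* had 5.35 and 3.24 FPKM in the soma against 0.291 and 0.236 in the germline, from 3 reads in each germline library. The scaled ratio of its summed reads was 20.3 (exact 95% interval 9.28 to 55.5). *tai* had 8.72 and 8.51 FPKM in the soma against 1.11 and 1.37 in the germline. These 3 genes were separated from their germline values by more than 5-fold, while *Stat92E* had 24.1 and 24.3 FPKM in the soma against 5.94 and 11.4 in the germline. The receptor *dome* and the kinase *hop* did not pass, with log2 fold changes of 0.89 and 0.87. The ligand *upd1* had 0.380 and 1.56 FPKM in the soma against 0.109 and 0.0882 in the germline, where 1 read in each library stood behind the value. The gene of the list with the highest mean over the 4 libraries, *apt*, which limits the STAT response in follicle cells, had 27.4 and 21.3 FPKM in the soma against 12.4 and 14.9 in the germline and did not pass (adjusted p of 0.128 in limma).

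*Pvr* encodes the single fly receptor related to the PDGF and VEGF receptors, through which border cells read the position of the oocyte. The gene lies on chromosome 2L from 8220980 to 8239878 on the minus strand. Its value was 6.72 and 17.2 FPKM in the soma against 0.256 and 0.207 in the germline, from 1920, 141, 5 and 5 reads. The soma libraries differed 2.56-fold from each other, and the lower of them was still far above both germline libraries. The mean was 11.96 ± 7.40 FPKM (SD, n = 2) for the soma and 0.231 ± 0.0343 (SD, n = 2) for the germline. The log2 fold change was 5.04 (SE 0.75, adjusted p of 0.00956 in limma), and the scaled ratio of summed reads was 30.6 (exact 95% interval 16.6 to 64.0, counting error only). On the log2 scale *Pvr* lay above 98.6% of all genes tested. Blood cells also use *Pvr*, and their markers *Hml*, *NimC1*, *He* and *eater* were at 0 in 3 of the libraries and at most at 0.0218 FPKM in soma replicate 1, and *Pxn* at most at 0.136 FPKM. Of the blood cell list, *srp* alone was tested, at 40.9 and 44.4 FPKM in the soma against 1.68 and 3.89 in the germline. The fat body marker *Lsp2* was at 0 in the 4 libraries.

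*Pvf1* encodes a ligand of Pvr that is known from the oocyte, where it serves as the attractant for the cluster. It lies on the X chromosome from 18832682 to 18842901 on the plus strand. In these libraries it had 7.77 and 11.7 FPKM in the soma against 2.45 and 2.87 in the germline, from 928, 40, 20 and 29 reads. Both soma libraries were thus above both germline libraries, and the germline values stood on reads well above the floor of 3. The mean was 9.71 ± 2.75 FPKM (SD, n = 2) for the soma and 2.66 ± 0.303 (SD, n = 2) for the germline. The log2 fold change was 1.81 (SE 0.46, 95% interval 0.70 to 2.91), and the limma adjusted p of 0.0508 missed the threshold. It passed in 4 of the 10 alternative settings that kept all libraries.

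The ratio of *Pvr* to *Pvf1* FPKM was 0.865 and 1.47 in the soma against 0.105 and 0.0721 in the germline. Receptor and ligand were at like levels in the soma, while in the germline the ligand was the more abundant by about an order of magnitude. *Pvr* had only 5 reads in each germline library, so the size of the germline ratios is uncertain. With 2 libraries against 2, the exact 2-sided permutation p of such a ratio is 0.333, the smallest it allows, and it was 0.333 for each of the 4 ratios compared here, before and after Benjamini-Hochberg adjustment.

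**Figure D3:**
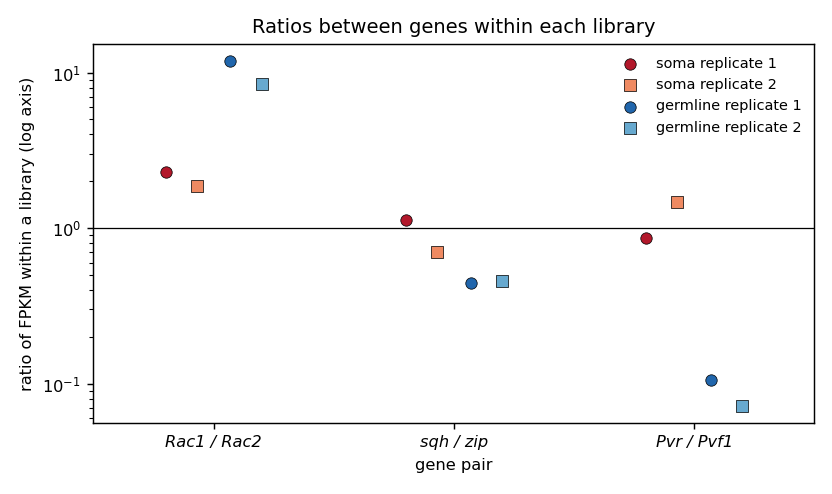
Ratio of the FPKM of 2 genes within each library, on a log axis, for *Rac1* over *Rac2*, *sqh* over *zip* and *Pvr* over *Pvf1*; red and orange are the soma, dark and light blue the germline. The soma and germline points do not overlap for any of the 3 pairs, and *Rac1* over *Rac2* is at 11.8 and 8.51 in the germline and at 2.28 and 1.87 in the soma.

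Of the other guidance genes, only the EGF receptor gene passed. *Egfr*, the second guidance receptor with the highest mean of this list of 7 over the 4 libraries, had 13.0 and 17.0 FPKM in the soma against 0.833 and 0.238 in the germline. Its log2 fold change of 4.74 (SE 0.69, adjusted p of 0.00879 in limma) was close to that of *Pvr*. In the germline it lay below *spi* (5.62 and 3.79 FPKM), *Krn* (3.27 and 1.83 FPKM) and *grk*. The ligands *Pvf2* and *Pvf3* were below 0.4 FPKM in each library, and *Pvf3* was at 0 reads in both germline libraries. The EGF receptor ligand *grk*, which the oocyte makes, had 2.09 and 0.944 FPKM in the soma against 2.18 and 1.44 in the germline, and these values overlapped. The ligands *spi*, *vn* and *Krn* did not pass either, with log2 fold changes of 0.43, 1.56 and 0.77.

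Rac GTPases turn guidance signals into protrusions, and Mbc, together with the ELMO protein Ced-12, is the exchange factor that loads Rac below Pvr. *mbc* lies on chromosome 3R from 23781765 to 23801634 on the plus strand. It had 20.5 and 23.5 FPKM in the soma against 4.56 and 8.72 in the germline, from 6557, 216, 100 and 236 reads. The germline libraries differed 1.91-fold from each other and both lay well below the soma. Its log2 fold change was 1.78 (SE 0.40, adjusted p of 0.0335 in limma). The call was lost without a filter on low values (adjusted p = 0.0504) and with eBayes without a trend (0.131). It was also lost without rRNA genes at an equal FPKM sum per library (0.243). Its partner *Ced-12* had 15.2 and 23.2 FPKM in the soma against 17.1 and 12.1 in the germline, so the groups overlapped, and its log2 fold change was 0.39 (95% interval -0.45 to 1.22).

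*Rac1* lies on chromosome 3L from 1300879 to 1302683 on the minus strand. It had 39.9 and 59.3 FPKM in the soma against 24.9 and 32.8 in the germline, from 3091, 132, 132 and 215 reads. The gap between the lowest soma and the highest germline library was smaller than the gap between the soma replicates. On the log2 scale the difference was 0.76 (SE 0.31, 95% interval 0.02 to 1.51, adjusted p of 0.17 in limma). *Rac2* encodes a closely similar GTPase that can act in place of Rac1. It had 17.5 and 31.7 FPKM in the soma against 2.10 and 3.86 in the germline, a log2 fold change of 3.0 (SE 0.48, adjusted p of 0.012 in limma). *Rac1* was thus the more abundant of the pair in each library, by 2.28 and 1.87 times in the soma and by 11.8 and 8.51 times in the germline. How reads that fit both genes were counted is not given in the sources used here, so the split between them is uncertain. The third Rac gene, *Mtl*, had 13.1 and 5.35 FPKM in the soma against 9.53 and 12.6 in the germline, and the groups overlapped.

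Among 21 genes of Rac signalling and actin, 3 were higher in the soma, against 8.64% of all genes tested, and 18 did not pass. The 3 were *Rac2* and *Abi* and *HSPC300*, which encode subunits of the WAVE complex that drives branched actin below Rac. *Abi* had a log2 fold change of 1.38 and *HSPC300* of 1.68. The other subunits did not pass, with 24.6 and 37.6 FPKM in the soma against 12.7 and 13.8 FPKM in the germline for *Hem*, and log2 fold changes of 0.27 for *Sra-1* and -0.21 for *SCAR*. The most abundant gene of the list was *tsr*, the fly cofilin, with 293.6 and 536.3 FPKM in the soma against 457.9 and 379.3 in the germline. *sn*, the fly fascin, had 23.7 and 42.3 FPKM in the soma against 39.98 and 35.5 in the germline. Both genes overlapped between the groups. The median log2 fold change of the list was 0.65.

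Non-muscle myosin II contracts the cortex and pulls the rear of the cluster free, and it is built from the heavy chain *zip*, the regulatory light chain *sqh* and the essential light chain *Mlc-c*. *sqh* lies on the X chromosome from 6223061 to 6225140 on the minus strand. It had 130.7 and 133.1 FPKM in the soma against 21.3 and 18.2 in the germline, from 8854, 259, 99 and 104 reads. The replicates of each group lay close together and the groups far apart. The mean was 131.9 ± 1.69 FPKM (SD, n = 2) for the soma and 19.8 ± 2.24 (SD, n = 2) for the germline, with a log2 fold change of 2.74 (SE 0.25, adjusted p of 0.0022 in limma). Its 95% interval of 2.13 to 3.34 was the narrowest of the 10 genes.

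*zip* lies on chromosome 2R from 24990570 to 25011965 on the minus strand, found by its symbol because its identifier in the table is no longer in the annotation. It had 116.2 and 190.5 FPKM in the soma against 48.4 and 40.1 in the germline, from 36107, 1701, 1030 and 1052 reads. The soma replicates differed 1.64-fold, and the lower of them was well above both germline libraries. The log2 fold change was 1.75 (SE 0.33, adjusted p of 0.020 in limma). With eBayes without a trend the adjusted p was 0.11, and without rRNA genes at an equal FPKM sum per library it was 0.085. The third chain, *Mlc-c*, had 143.7 and 160.6 FPKM in the soma against 35.5 and 32.3 in the germline, with a log2 fold change of 2.16 (SE 0.26, adjusted p of 0.0046 in limma).

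All 3 chains of the myosin were therefore higher in the soma. The ratio of *sqh* to *zip* was 1.13 and 0.699 in the soma against 0.441 and 0.454 in the germline, while that of *Mlc-c* to *zip* was 1.24 and 0.843 in the soma and 0.734 and 0.807 in the germline. Of the 7 genes of the list on myosin II regulation, *Mlc-c* alone passed. The kinase gene *Rok* had 18.6 and 20.3 FPKM in the soma against 23.3 and 20.6 in the germline. *Mbs*, the targeting subunit of the myosin phosphatase, had 5.61 and 5.51 FPKM in the soma against 9.82 and 10.3 in the germline (log2 fold change -0.84, standard error 0.36, limma adjusted p = 0.19). The phosphatase gene *flw* had a log2 fold change of -0.31. The kinase gene *Drak*, which acts on the regulatory light chain, had 13.1 and 10.5 FPKM in the soma against 3.37 and 8.82 in the germline. The 6 genes that did not pass thus lay on both sides of 0, with soma values above the germline for *Drak*, *sqa* and *Strn-Mlck* and below it for *Rok* and *Mbs*. The summed level of 10 muscle markers was 6.93 and 21.6 FPKM in the soma against 16.5 and 2.35 in the germline, and none of them passed in limma, with *Prm* alone at an unadjusted p under 0.05. *Mhc*, the muscle myosin heavy chain, had at most 1.97 FPKM.

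*jar* encodes myosin VI, a motor that walks to the minus end of actin and binds cadherin complexes in border cells. It lies on chromosome 3R from 24252826 to 24271233 on the minus strand. It had 27.5 and 30.2 FPKM in the soma against 26.1 and 17.2 in the germline, from 6650, 210, 433 and 352 reads. Soma replicate 1 and germline replicate 1 were almost at the same level. Its difference was 0.44 on the log2 scale (SE 0.31, 95% interval -0.29 to 1.17, adjusted p of 0.41 in limma). Without rRNA genes, at an equal FPKM sum per library, the difference was -0.07, in a setting that moved the median over all genes by -0.47.

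*puc* encodes a phosphatase that JNK signalling switches on and that inhibits JNK in turn. It lies on chromosome 3R from 8105332 to 8122294 on the plus strand. It had 12.5 and 20.7 FPKM in the soma against 3.86 and 7.83 in the germline, from 1698, 81, 36 and 90 reads. The replicates differed 1.66-fold in the soma and 2.03-fold in the germline. Soma exceeded germline by 1.53 on the log2 scale (SE 0.47, 95% interval 0.41 to 2.65, adjusted p of 0.086 in limma). Of 9 other JNK genes, 2 were higher in the soma, both by more than 5-fold, and 7 did not pass. Of all genes tested, 8.64% were higher in the soma. *egr*, the fly TNF ligand, had 6.12 and 12.7 FPKM in the soma against 0.314 and 0.509 in the germline, with a log2 fold change of 4.15 (SE 0.71, adjusted p of 0.014 in limma). Its germline values came from 2 and 4 reads, and the scaled ratio of its summed reads was 14.9 (exact 95% interval 6.83 to 40.9, counting error only). *kay*, the fly Fos, had 11.8 and 13.3 FPKM in the soma against 0.874 and 1.45 in the germline, with a log2 fold change of 3.36 (SE 0.52, adjusted p of 0.011 in limma). Its partner *Jra*, the fly Jun, had 16.0 and 22.7 FPKM in the soma against 8.08 and 13.6 in the germline and did not pass. The kinases between ligand and AP-1 had log2 fold changes of -0.05 for *Tak1*, -0.38 for *slpr*, 0.70 for *hep* and 1.07 for the JNK gene *bsk*. *msn*, the most abundant of the list, had 30.1 and 25.04 FPKM in the soma against 16.3 and 16.5 in the germline.

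*Fak* encodes focal adhesion kinase, which acts at integrin adhesions. It lies on chromosome 2R from 19430659 to 19437259 on the minus strand. It had 10.1 and 7.94 FPKM in the soma against 4.91 and 5.89 in the germline, from 2436, 55, 81 and 120 reads, with a log2 fold change of 0.73 (SE 0.39, 95% interval -0.21 to 1.66, adjusted p of 0.29 in limma). Of 13 adhesion genes on the list, 9 were higher in the soma, against 8.64% of all genes tested. The list was written with earlier results of these data known, so this count cannot be told apart from the choice of its genes. No gene of the list was higher in the germline by limma at an adjusted p or at an unadjusted p under 0.05, against 3.59% and 11.0% of all genes. The integrin genes *mys*, *mew* and *if* had log2 fold changes of 2.53, 4.42 and 4.24, and their adaptors *rhea*, *Vinc* and *Pax* of 1.48, 1.40 and 1.38. The germline values of *if* rested on 1 and 6 reads. *shg*, the E-cadherin by which border cells grip the nurse cells, had 44.6 and 64.1 FPKM in the soma against 6.49 and 9.35 in the germline, with a log2 fold change of 2.76 (SE 0.33, adjusted p of 0.0047 in limma). Its cytoplasmic partners did not pass. *alpha-Cat*, with the highest mean of the list over the 4 libraries, had 46.8 and 111.2 FPKM in the soma against 48.1 and 48.6 in the germline. In soma replicate 1 and germline replicate 1 *arm* was above it, at 56.3 and 56.0 FPKM, and the log2 fold changes of *arm* and *p120ctn* were 0.05 and -0.04. The kinase *Src42A* was higher in the soma, at 2.09 on the log2 scale, and *Src64B* was not, at -0.17. *Fas2*, an adhesion molecule of polar cells, had 6.58 and 10.1 FPKM in the soma against 0.279 and 0.491 in the germline.

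Of the 6 genes of membrane traffic, which keep guidance receptors active at the front of the cluster, *Rab5* alone was higher in the soma. It had 55.8 and 55.9 FPKM in the soma against 26.7 and 28.2 in the germline, a log2 fold change of 1.02 (SE 0.25, adjusted p of 0.043 in limma). *Rab11*, the most abundant of them, had 143.7 and 201.1 FPKM in the soma against 96.2 and 94.4 in the germline. Over the 76 genes of the 7 lists, 21 were higher in the soma and 0 in the germline, against 8.64% and 3.59% of all genes tested. These shares apply to the count of each list too. The lists were written with earlier results of these data known, so a difference from these shares cannot be told apart from the choice of genes. At an unadjusted p under 0.05, limma and limma-voom also gave 0 in the germline, against 11.0% and 14.7% of all genes. Among the alternatives that kept all libraries, limma gave 1 there with a pseudocount of 0.01, with a mean of at least 1 FPKM and with quantile normalization. The median log2 fold change of the 76 was 0.84, with medians from 0.14 for membrane traffic to 1.56 for the guidance genes. The guidance median was the value of *vn*, which was not called (SE 1.18) and had 1 and 6 reads in the germline. Adhesion, with 9 of 13 genes called, had a median of 1.48.

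**Figure D4:**
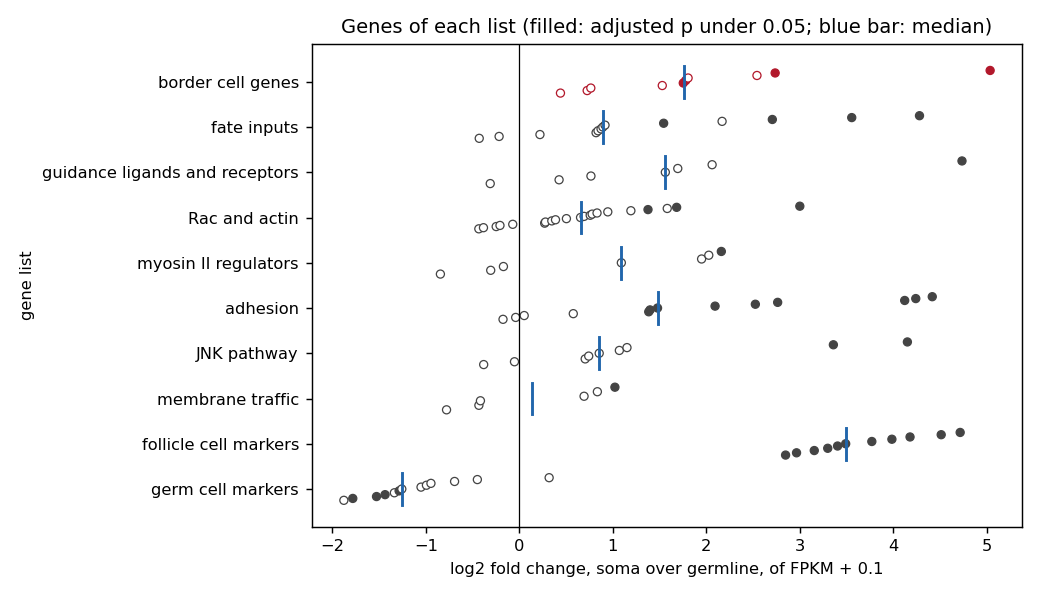
Log2 fold change of soma over germline for each gene of the border cell set, of the 7 related lists and of the follicle and germ cell markers; filled points have an adjusted p under 0.05 and the blue bar is the median of the list. The border cell genes spread from 0.44 to 5.04, between the germ cell markers (-1.88 to 0.32) and the follicle cell markers (2.85 to 4.72), with *Pvr* above each of the latter.

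The share of the soma level that each gene kept in the germline libraries set the 10 apart from each other. The 11 follicle cell markers tested had germline means at 3.07% to 13.2% of their soma means, with a median of 9.68%. *Pvr*, at 1.94%, was below each of these markers by its means, and *slbo*, at 11.8%, was within their range. The soma replicates of *Pvr* differed 2.56-fold, so its place is uncertain. Its scaled ratio of summed reads, 30.6, was below the ratio of means of *ct*, 32.6, the marker with the lowest share. The other 8 genes were above each of the markers by their means. They were *sqh* at 14.98%, *Pvf1* at 27.4%, *zip* at 28.8%, *mbc* at 30.2%, *puc* at 35.2%, *Rac1* at 58.2%, *Fak* at 59.8% and *jar* at 75.1%. The marker with the highest share, *mirr* at 13.2%, was close to *sqh*. Its germline values rested on 5 and 14 reads, so the place of *sqh* is uncertain too. In the other direction, the germ cell markers had a median of 43.4% of their germline level in the soma libraries. How much of the germline signal of any gene is RNA of follicle cells, or of its soma signal RNA of germ cells, was not tested.

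In the soma, the order of the levels was *zip*, *sqh*, *Rac1*, *jar*, *mbc*, *puc*, *Pvr*, *Pvf1*, *Fak* and *slbo*. The ranges of the replicates overlapped between *zip* and *sqh*, and between each gene and the next from *mbc* to *Fak*, while *Rac1* and *jar* stood apart from both neighbours and *slbo*, the last, from *Fak*. In the germline, the order was *zip*, *Rac1*, *jar*, *sqh*, *mbc*, *puc*, *Fak*, *Pvf1*, *Pvr* and *slbo*. There *zip* stood apart, the next 3 genes overlapped with their neighbours, *mbc*, *puc* and *Fak* did so too, and *Pvr* overlapped with *slbo*. By mean, the heavy chain *zip* was thus at the top and *slbo* at the bottom in both groups, *sqh* fell from the second to the fourth place and *Pvr* from the seventh to the ninth. By level, *zip* lay above 97.2% of the genes tested in the soma and 91.2% in the germline, and *slbo* above 19.96% and 11.6%.

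The genes with the profile most like *slbo*, by Euclidean distance over log2(FPKM + 0.1) in the 4 libraries, were *bol* (distance 0.39), *Octbeta2R* (0.47) and *klu* (0.56). *Octbeta2R*, an octopamine receptor, had 1.64 and 1.62 FPKM in the soma against 0.272 and 0.110 in the germline. The nearest to *Pvr* were *CG13321* (0.60), *CG15221* (0.92) and *CG15117* (0.95). *CG13321* had 6.38 and 19.5 FPKM in the soma against 0.167 and 0.135 in the germline, and it shared with *Pvr* the higher value in soma replicate 2. With 4 libraries and low counts, these are descriptions of a profile.

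**Figure D5:**
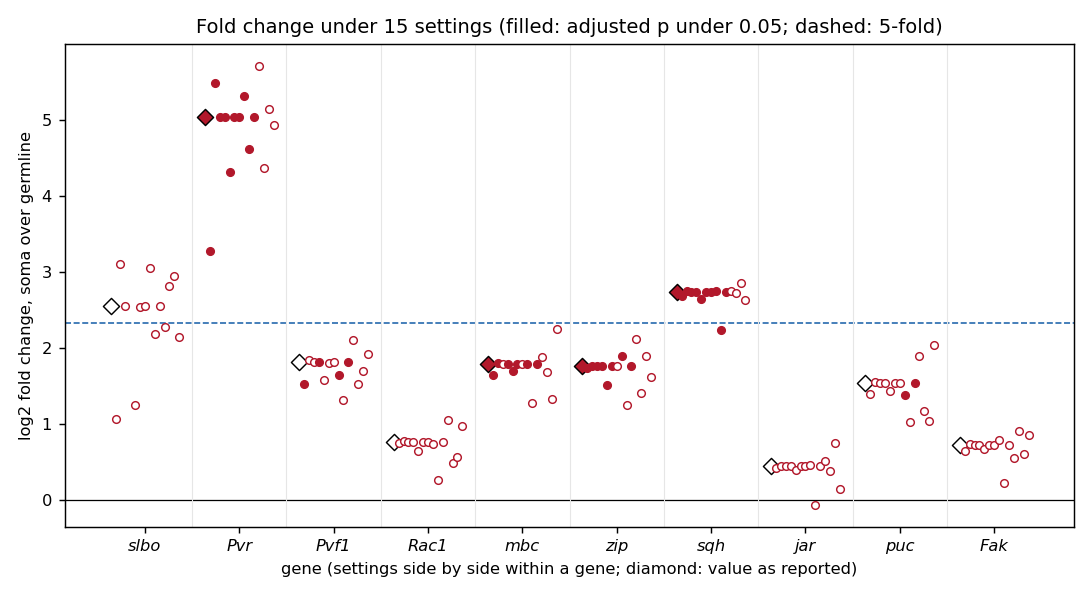
Log2 fold change of soma over germline for the 10 genes in the analysis as reported (diamond) and under 14 alternative settings (circles); filled symbols have an adjusted p under 0.05 and the dashed line is 5-fold. *Pvr* stays above 5-fold under each setting. *sqh* is below it only without rRNA genes at an equal FPKM sum per library (2.23), and *jar* crosses 0 there (-0.07). That setting moved the median over all genes by -0.47.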

How the data were processed

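TRAP libraries of ovary soma and germline, 2 each, were analysed. The authors deposited FPKM values of 17490 genes, with decimal commas read here as points. Their processing notes name cutadapt, FastQC and HISAT2, among other tools, and the build dm6. The counting tool and the annotation are not given in the sources used here, nor is the use of strand. The exons of the 10 genes overlap no other annotated exon.

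FPKM times exon length (BDGP6.54, Ensembl) was a whole multiple, within 0.03 reads, of 1 constant per library in 96.6% of the 10518 genes above 0. These constants followed median-ratio size factors within 0.21%. Identifiers matched 17216 genes, and symbols 85 more.

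Soma and germline were compared with limma 3.58.1 in R 4.3.3 (eBayes with a trend, no replicate block) on log2(FPKM + 0.1), which understates the change of low genes. Tables used Python 3.11.15. The test was tried on simulated reads. The members and gene lists were chosen with earlier results of these data known. Apart from the 10 genes, each related gene past the threshold and the gene of each list with the highest mean over the libraries were named, with *Rac2*, *Mtl*, defining markers and the 3 profiles nearest to *slbo* and *Pvr*. Other genes of the lists were named after their values were seen. The listed markers *vas*, *br* and *wupA* were not analysed here. Alternatives were pseudocounts of 1 and 0.01, other filters, scalings and variance priors, limma-voom, a replicate block and leaving out each library.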

Additional observations from a re-analysis of the deposited data

How the results depend on the processing

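The log2 fold changes of the 10 genes kept their sign under the alternatives tried, except that of *jar*, at -0.0681 without rRNA genes. There rRNA genes were dropped and each library was scaled to the same sum of FPKM. The deposited values followed median-ratio size factors instead, so this setting also changed the kind of scaling. That setting moved the median over all genes by -0.47, quantile normalization by -0.22 and the absence of a filter by 0.12, so fold changes there are read against these shifts. Median-ratio scaling moved it by -0.0009. It could hardly differ from the values as reported, because the deposited values already followed such factors. The count of border cell genes called in the soma, 4 as reported, was 2 with eBayes without a trend, 2 without rRNA genes and 0 with any library left out, and 1 instead of 3 passed the cut-offs of the study without rRNA genes (2 to 3 with a library left out). Of all genes, 762 were higher in the soma as reported, 451 without a trend, 333 without rRNA genes and 0 to 564 with a library left out (446 without soma replicate 1). In the germline direction they were 317 as reported, 37 without a trend, 172 without rRNA genes, 656 with limma-voom, 581 with a replicate block and 0 to 11 with a library left out. Without germline replicate 1 or 2, where limma called 0 genes of all, 996 and 1035 genes had an unadjusted p under 0.05 in the soma direction and 416 and 542 in the germline direction. Of the 76 related genes, 21 were higher in the soma as reported, 9 without a trend, 7 without rRNA genes and 0 to 2 with a library left out. Each fit without a library has 1 residual degree of freedom, and the lone library is assumed to vary like the others. *slbo*, with a mean under 1 FPKM, has no value at the stricter filter. The replicate numbers share only a number (correlation of deviations -0.07 across genes). With the replicate block 6 of the 10 genes were called, *Pvf1* and *puc* beside the 4. That fit also has 1 residual degree of freedom, and the SE of *sqh* was larger in it (0.35 against 0.25), so its added calls carry little weight. Limma-voom on the reads called the same 6. Depth limits *slbo* most, with 4, 2 and 1 reads in 3 libraries.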
